A study of Mus musculus with 130 samples.

Results

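The transcripts of 8 oocyte-type genes were followed by RNA-seq in embryonic stem cells of the mouse: Nlrp4a, Nlrp4b, Nlrp4c, Nlrp4f, Khdc3, Nlrp5, Ooep and Tle6. They were taken by name from the 52550 genes of the count tables, and all 8 were found there once. 10 libraries were used, each the only library of its group. All were embryonic stem cells, the self-renewing cells of the early embryo kept in culture, cultured on gelatin, with serum and LIF, the cytokine that holds them undifferentiated.

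The first 3 libraries had the strain C57BL/6xCBA. They were the wild-type line TT2 (WT TT2), a line labelled G9a-/- Tg(Y1120V;Y1207F), which carries a G9a transgene with changes Y1120V and Y1207F (G9a CM), and a line labelled G9a-/-;GLP-/- (the library labelled G9a/GLP DKO). A further 3 had the strain 129S4/SvJae: the wild-type line J1 (WT J1), a Dnmt3a/3b double knockout (Dnmt3a/3b DKO) and a Dnmt1/3a/3b triple knockout (Dnmt1/3a/3b TKO). The other 4 were wild-type TT2 cells given DMSO (vehicle control) or UNC0638, an inhibitor of G9a and GLP, and collected on day 2, 4 or 14. Titles give the dose as 250 nM, the protocol as 250 µM, and it is not stated whether treatment lasted through day 14. Each mutant is represented by 1 library, and the labels name 1 clone for each of the G9a lines.

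G9a and GLP, encoded by Ehmt2 and Ehmt1, are the enzymes that place mono- and dimethylation on lysine 9 of histone H3. The Dnmt enzymes methylate DNA: Dnmt3a and Dnmt3b set new methylation and Dnmt1 copies it at replication. Khdc3 (also called FILIA), Nlrp5 (MATER), Ooep (FLOPED) and Tle6 encode proteins of the subcortical maternal complex, an assembly under the surface of the mouse oocyte and early embryo that the embryo needs for its first divisions. Nlrp4f encodes a further Nlrp protein of oocytes that has been found with that complex. The Nlrp4 genes belong to a germline branch of the Nlrp family, which grew by gene duplication in rodents, and mouse oocytes express many of them. Khdc3 and Ooep, which both carry a KH domain, are also known to be expressed in embryonic stem cells.

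Total counts per library were 11436808 to 25609600. No group had a replicate, so there was no test between conditions. Differences were taken on the log2(CPM + 1) scale, where CPM is the count scaled to the TMM-adjusted library size. A gene was called higher or lower when this difference was at least 1, its level reached 1 CPM in 1 of the pair, and the 95% interval of the ratio of counts (exact, conditional binomial) did not hold 1. Folds are ratios of CPM, and every interval covers counting error only. Of the targeted genes, Ehmt1 stood at 7.95 CPM for the library labelled G9a/GLP DKO against 38.3 in WT TT2, while Ehmt2 was not lower there, at 17.9 against 14.5. Dnmt3a and Dnmt3b stood at 2.68 to 4.76 CPM in both Dnmt lines against 17.4 and 26.9 in WT J1, and Dnmt1 at 6.35 CPM in Dnmt1/3a/3b TKO against 46.6. All 10 of 10 markers of pluripotent cells reached 1 CPM, with sums of 7065 to 27531 CPM. The highest sum, in WT J1, was mostly Dppa5a (23099 CPM), and Pou5f1 was at 10.3 to 33.3 CPM in the 6 libraries outside the inhibitor series and 294 to 455 in the 4 within it. Of 6 markers of granulosa cells, the companions of oocytes in an ovary, 2 reached 1 CPM (sums 3.54 to 15.1 CPM). Fshr had 0 counts in all 10 libraries, and Amh, Foxl2 and Cyp19a1 peaked at 0.129, 0.0734 and 0.102 CPM.

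WT TT2 and the vehicle control are both wild-type TT2, yet they lay far apart: 25.2% of tested genes were higher and 22.0% lower in the vehicle control than in WT TT2. The deposited fragment-length correction (gene length minus effective length) had a median of 251 to 275 bases in the 4 libraries of the inhibitor series and of 150 to 198 bases in the other 6. The part of this difference in the results below was not tested. For the 8 genes, calls that depend on which of the control libraries is used are given with the values for the other. Where a control is swapped in this way, the share of all genes called was not taken.

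Markers of other cell types moved in some of the same libraries. Summed trophoblast markers (6 of 8 reached 1 CPM) were at 26.4 CPM in WT J1, 74.1 and 68.3 in the Dnmt lines, 52.7 in WT TT2, and 78.2 and 68.5 in the G9a lines. In the inhibitor series they were at 91.7 to 189 CPM, highest in the vehicle control, where Tfap2c, Krt8 and Krt18 were at 94.0, 60.4 and 30.2 CPM. Cdx2 and Elf5 peaked at 0.147 and 0.611 CPM. Gata3, Tfap2c, Krt7, Krt8 and Krt18 were above WT J1 in both Dnmt lines, and Eomes below it. Markers of primordial germ cells and oocytes (7 of 8) summed to 68.3 CPM in WT TT2 and 140 and 111 in the G9a lines. They summed to 91.4 CPM in WT J1 and 157 and 247 in the Dnmt lines. In the inhibitor series the sum was 56.3 CPM in the vehicle control against 64.8, 66.5 and 83.1 on days 2, 4 and 14. Most of the Dnmt rise was Dazl, at 25.7 CPM in WT J1 and 76.5 and 167 in the Dnmt lines. Zp3 and Gdf9 were also above WT J1 in both Dnmt lines, and Ddx4 and Figla below it. Prdm1 and Nanos3 were above it only in Dnmt3a/3b DKO. Dazl, Prdm1 and Zp3 were above WT TT2 in both G9a lines, while Ddx4 was at 55.1 and 16.2 CPM against 26.7. Primitive endoderm markers (6 of 7) summed to 3.62 to 24.1 CPM, highest on day 14, and fibroblast markers (3 of 8) to 2.57 to 10.5 CPM. Their part in the results was not tested.

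The Nlrp4 genes lie at separate places in the genome. In GRCm38, Nlrp4a (ENSMUSG00000040601.13) is at chr7:26435113-26476142, Nlrp4b (ENSMUSG00000034087.14) at chr7:10687793-10730168, Nlrp4c (ENSMUSG00000034690.13) at chr7:6045161-6105149 and Nlrp4f (ENSMUSG00000032999.10) at chr13:65177111-65205716. Their promoters are shown because genes with closely similar upstream sequence were at very different levels. RefSeq promoter windows of GRCm38.p6, from 250 bases before to 50 after an annotated start, were found for all 8 genes, with 12 windows in all since 4 genes have 2 starts. The 250 upstream bases, 5′ to 3′ on the plus strand, are given for Nlrp4a (chr7:26435364-26435613, the downstream of its 2 starts), Nlrp4b (chr7:10687543-10687792) and Nlrp4c (chr7:6044911-6045160). Capitals mark CCAATCACATGG, the longest run that all 3 share.
Nlrp4a: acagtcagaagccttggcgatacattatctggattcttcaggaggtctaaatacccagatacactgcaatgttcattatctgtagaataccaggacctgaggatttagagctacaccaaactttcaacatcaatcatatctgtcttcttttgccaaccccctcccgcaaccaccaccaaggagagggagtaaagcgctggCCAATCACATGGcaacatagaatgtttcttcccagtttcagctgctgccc
Nlrp4b: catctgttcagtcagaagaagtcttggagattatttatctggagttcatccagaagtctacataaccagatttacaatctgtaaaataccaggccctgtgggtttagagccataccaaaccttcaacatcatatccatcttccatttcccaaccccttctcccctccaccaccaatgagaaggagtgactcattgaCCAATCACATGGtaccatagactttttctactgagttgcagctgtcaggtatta
Nlrp4c: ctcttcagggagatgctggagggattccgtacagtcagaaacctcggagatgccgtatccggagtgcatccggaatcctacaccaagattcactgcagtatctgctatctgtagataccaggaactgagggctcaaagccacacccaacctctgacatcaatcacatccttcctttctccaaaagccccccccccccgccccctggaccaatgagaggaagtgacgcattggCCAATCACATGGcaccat

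The run CCAATCACATGG, searched on both strands, was in 7 of 32851 promoter windows (0.0213%). These were the Nlrp4a window above, both Nlrp4b windows, the Nlrp4c window, and windows of Dcxr, Oscp1 and Tmem52b. It contains 1 match to the E-box pattern CANNTG and was looked for after the sequences had been seen. In local alignments of the windows, Nlrp4c was 78.3% identical to Nlrp4a over 263 aligned bases and 80.5% identical to Nlrp4b over 257. Nlrp4a and Nlrp4b were 80.7% identical over 280 bases. No window of a gene other than Nlrp4a and Nlrp4b aligned to Nlrp4c with as high a score: the next score was 138, against 279 to 318 for these. The Nlrp4f window differed, since 32376 of 32851 windows aligned to Nlrp4c at least as well. Its positions -250 to -167 aligned over 80 columns, 86.3% identical, to positions -30 to 49 around the downstream Nlrp4b start, a score that 79 windows reached.

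Of these genes with similar upstream sequence, Nlrp4c was the one expressed. WT TT2 held 1.06 CPM of Nlrp4c, against 17.6 for G9a CM and 18.3 for the library labelled G9a/GLP DKO. In the J1 lines Nlrp4c had 0 counts in WT J1, while Dnmt3a/3b DKO reached 2.81 CPM and Dnmt1/3a/3b TKO 6.08. In the inhibitor series it was at 0.661 CPM in the vehicle control and 5.34, 7.67 and 13.0 on days 2, 4 and 14. All 7 mutant or inhibitor libraries were above all 3 control libraries, which held for Nlrp5 as well, though on few counts. For Nlrp5 the count interval held 1 in Dnmt3a/3b DKO against WT J1 (5 against 0 counts) and on day 2 against the vehicle control (6 against 0). Of all genes at 1 CPM or more in 1 library, 1.55% had all 7 above all 3 in CPM and 0.333% the reverse. For Nlrp4c the highest control was WT TT2 and the lowest of the others Dnmt3a/3b DKO. In bulk RNA, fewer cells with a transcript and less of it per cell cannot be told apart.

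Nlrp4a and Nlrp4b stayed near the limit of detection. Nlrp4b had 0 counts in all 10 libraries, where 3 counts would be 0.118 to 0.236 CPM. Nlrp4a had 2 to 12 counts per library, at 0.134 CPM in WT J1 up to 0.944 for the library labelled G9a/GLP DKO, and in the order of its levels no neighbouring pair of libraries had a count interval excluding 1. The Nlrp4a interval did exclude 1 in Dnmt3a/3b DKO against WT J1 (ratio 4.90, interval 1.07 to 45.5), on 11 against 2 counts. So did that of the library labelled G9a/GLP DKO against G9a CM (3.21, 1.05 to 11.6), on 12 against 5 counts. Neither gene was called in any of 11 comparisons, and under the rule neither could be, since both stayed under 1 CPM in every library. The posterior standard deviation that RSEM gives each count, which grows where reads fit several genes, was 0 for all 4 Nlrp4 genes in every library.

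Nlrp4f was expressed in every library. Its CPM was 10.0 for WT TT2, with G9a CM at 63.6 and the library labelled G9a/GLP DKO at 60.7. WT J1 stood at 5.30 CPM of Nlrp4f, Dnmt3a/3b DKO at 7.29 and Dnmt1/3a/3b TKO at 18.8. In the inhibitor series it was at 10.4 CPM in the vehicle control and 19.8, 28.1 and 22.9 on days 2, 4 and 14. The G9a lines stood highest and WT J1 lowest. WT TT2 and the vehicle control did not differ beyond counting error (ratio of vehicle control to WT TT2 1.04, interval 0.841 to 1.28), and Dnmt3a/3b DKO lay below both.

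**Figure D1:**
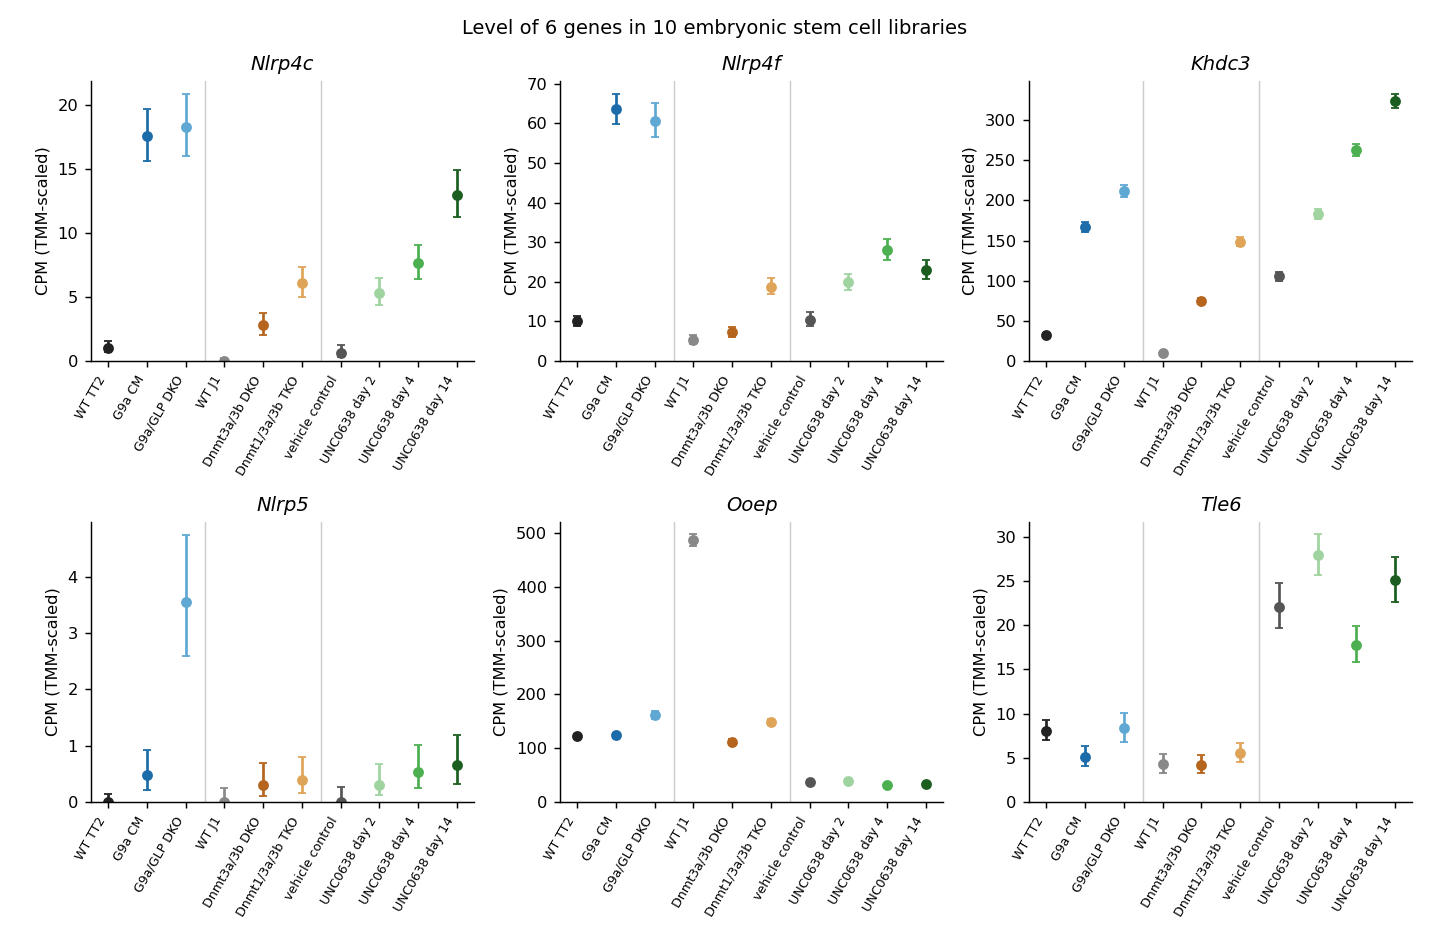
TMM-scaled CPM of 6 genes in each of the 10 libraries (1 point per library, bars are exact 95% Poisson intervals of the count, grey lines part the G9a lines, the J1 lines and the inhibitor series; each panel has its own linear axis from 0). Nlrp4c is at 2.81 CPM or more in all 7 mutant or inhibitor libraries and at 1.06 or less in the 3 controls, whereas Ooep is highest in WT J1 and Tle6 highest in the inhibitor series.

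Khdc3 (ENSMUSG00000092622.8, chr9:73101381-73106631) and Ooep (ENSMUSG00000032346.7, chr9:78376903-78378588) lie on the same chromosome. Their upstream sequences, and that of Nlrp4f, are shown with their CpG sites, the bases that Dnmt enzymes methylate. The levels of these genes differed in the Dnmt mutant lines, and whether the number of CpG sites has a part in that was not tested. The 250 bases are given for Khdc3 (chr9:73102148-73102397, plus strand), Nlrp4f (chr13:65205717-65205966, minus strand) and Ooep (chr9:78378589-78378838, minus strand), 5′ to 3′ in the direction of transcription, with CpG sites in capitals.
Khdc3: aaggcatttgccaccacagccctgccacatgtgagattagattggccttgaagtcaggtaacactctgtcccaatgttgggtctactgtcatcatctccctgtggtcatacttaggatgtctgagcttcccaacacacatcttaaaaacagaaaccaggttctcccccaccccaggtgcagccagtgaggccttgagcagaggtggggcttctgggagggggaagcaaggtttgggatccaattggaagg
Nlrp4f: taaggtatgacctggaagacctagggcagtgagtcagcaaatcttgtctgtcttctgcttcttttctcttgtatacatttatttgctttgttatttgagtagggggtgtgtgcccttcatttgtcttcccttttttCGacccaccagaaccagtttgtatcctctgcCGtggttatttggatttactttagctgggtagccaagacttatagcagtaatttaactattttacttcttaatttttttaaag
Ooep: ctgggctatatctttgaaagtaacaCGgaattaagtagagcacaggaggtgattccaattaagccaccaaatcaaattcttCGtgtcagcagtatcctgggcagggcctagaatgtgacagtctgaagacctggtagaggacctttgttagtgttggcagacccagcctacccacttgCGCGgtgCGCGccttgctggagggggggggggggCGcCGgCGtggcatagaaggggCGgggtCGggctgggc

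Khdc3 had no CpG site in its whole window of 300 bases, and 94.6% of all 32851 promoter windows had more. Nlrp4f had 2 and Nlrp4c 7, against a median of 7 and quartiles of 3 and 20 over all windows. Ooep had 15 CpG sites, and 33.0% of windows had more. The other genes with 2 starts ranged from 1 and 9 (Nlrp5) and 3 and 5 (Nlrp4a) to 3 and 18 (Tle6), and both Nlrp4b windows had 1. The only Khdc3 window has its start at 73102398, inside the gene span, which begins at 73101381. The 5′ end of the Khdc3 gene was therefore not covered, and its CpG sites were not counted. A window of this length says nothing of methylation further away, and DNA methylation was not analysed here.

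**Figure D2:**
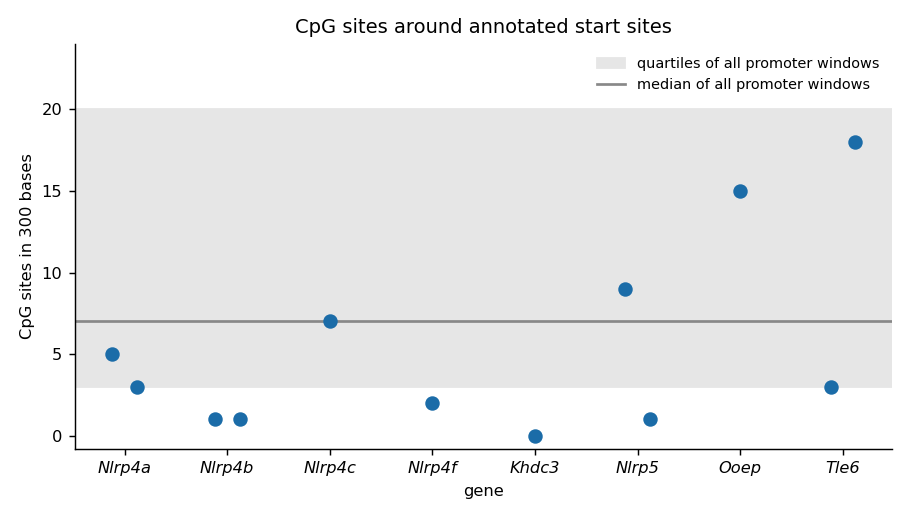
CpG sites in the RefSeq promoter windows of the 8 genes (1 point per annotated start, 300 bases each; the band spans the quartiles, 3 to 20, and the line the median, 7, of 32851 windows). Khdc3 (a start inside its gene span) is at 0 and Nlrp4f at 2, below the band, and Ooep at 15 lies within it.

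Other motifs were searched on both strands of the same windows. CACGTG, the E-box bound by MAX and MGA, was found at 2 positions in 1 Tle6 window and in 7.15% of all windows. TCCCGC, a motif of E2F6, was in 1 window each of Nlrp4a and Nlrp5 and in 20.0% of all. TAATTG and TAATTA, forms of the element bound by the oocyte factor NOBOX, were in Ooep and in 1 Nlrp5 window, and in 8.0% and 5.29% of all. CANNTG, which includes every CACGTG and is the pattern bound by the oocyte factor FIGLA, was in all 12 windows of the 8 genes and in 72.3% of all.

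Khdc3 had the widest range of the maternal complex genes in which every library had counts. Its CPM was 32.3 for WT TT2, with G9a CM at 167 and the library labelled G9a/GLP DKO at 212. WT J1 stood at 9.67 CPM of Khdc3, Dnmt3a/3b DKO at 74.8 and Dnmt1/3a/3b TKO at 149. In the inhibitor series it was at 105 CPM in the vehicle control and 183, 262 and 323 on days 2, 4 and 14. Each mutant or inhibitor library was above its own control, but the vehicle control was above Dnmt3a/3b DKO, so the groups overlap. All 9 neighbouring pairs in the order of its levels had count intervals that exclude 1. The posterior standard deviation of its counts was at most 0.826% of the count.

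Ooep behaved differently. WT TT2 held 122 CPM of it, G9a CM 124 and the library labelled G9a/GLP DKO 161. WT J1 held 487 CPM, Dnmt3a/3b DKO 112 and Dnmt1/3a/3b TKO 148. The vehicle control held 37.5 CPM, and days 2, 4 and 14 held 39.3, 30.5 and 32.4. WT J1 stood far above all other libraries and the inhibitor series below all others. Tle6 (ENSMUSG00000034758.12, chr10:81590904-81601185), which encodes a Groucho-family protein, was at 17.8 to 27.9 CPM in the inhibitor series and at 4.18 to 8.34 CPM in the other 6 libraries, so the split ran between sets of libraries and not between mutants and controls. In RefSeq the Tle6 gene overlaps the lncRNA Gm32024 by 4806 bases and Tle2 by 1678 bases. Tle2 reached 1.87 CPM, and no level of Gm32024 was analysed here. As no source used here states the strand setting, shared reads cannot be told apart.

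Nlrp5 (ENSMUSG00000015721.18, chr7:23385889-23441923), the core Nlrp protein of the complex, was scarcely expressed. It had 0 counts in WT TT2, WT J1 and the vehicle control. G9a CM had 8 counts of Nlrp5, the library labelled G9a/GLP DKO 45, Dnmt3a/3b DKO 5 and Dnmt1/3a/3b TKO 7. On days 2, 4 and 14 it had 6, 9 and 10 counts. Only the library labelled G9a/GLP DKO reached 1 CPM, at 3.54, and the other 6 lay at 0.299 to 0.646 CPM.

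In deposited TPM, which also accounts for gene length and so allows genes to be compared, the order of the genes changed between libraries. Ooep led in WT TT2 at 60.5 TPM against 21.4 for Khdc3, and in WT J1 at 185 TPM against 5.30. Khdc3 led in both G9a lines, at 123 against 67.4 TPM for Ooep in G9a CM and 166 against 92.7 for the library labelled G9a/GLP DKO. In Dnmt3a/3b DKO the pair stood near each other, at 51.3 TPM for Khdc3 and 56.2 for Ooep, and in Dnmt1/3a/3b TKO at 98.0 and 72.9. In the vehicle control Khdc3 was already first, at 90.8 TPM against 23.96 for Ooep and 28.1 for Tle6, and by day 14 it made up 79.1% of the summed TPM of the 8 genes. Nlrp4f exceeded Nlrp4c by 2.91 to 20.5 times in TPM in the 9 libraries where Nlrp4c was detected. Nlrp5 and Nlrp4a were at most 1.20 and 0.35 TPM.

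**Figure D3:**
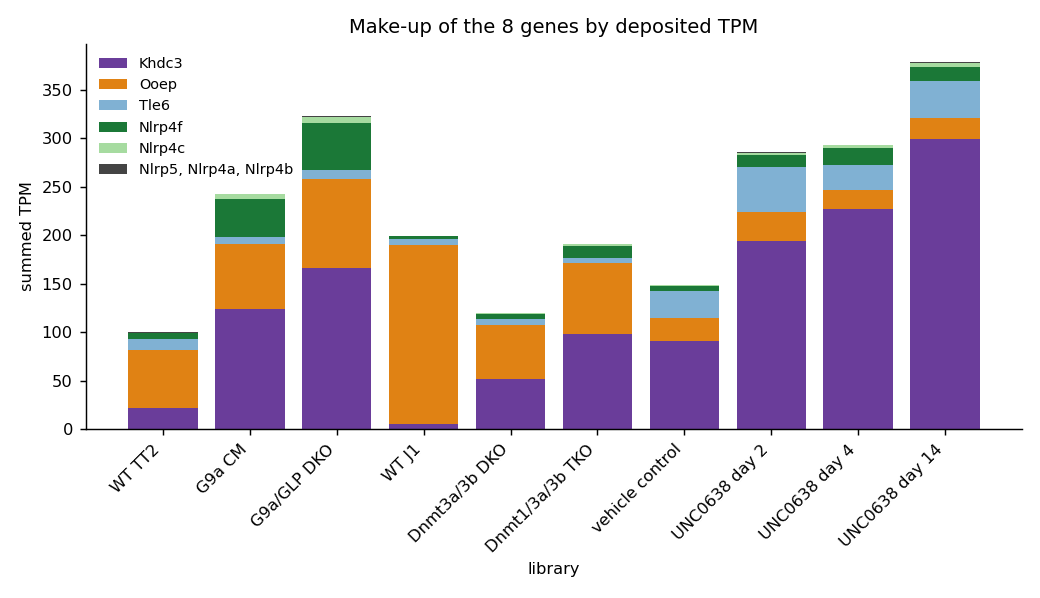
Deposited TPM of the 8 genes stacked for each of the 10 libraries, with Nlrp5, Nlrp4a and Nlrp4b summed. Khdc3 makes up 2.67% of the stack in WT J1 and 79.1% on day 14 of UNC0638, and Ooep 93.0% and 5.86%.

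The first comparison set the line with only the changed G9a transgene against its wild type. In G9a CM, 3 of the 8 genes were higher and 0 lower, against 5.4% higher and 5.07% lower over all tested genes. Nlrp4c was 16.6-fold higher (interval 11.2 to 25.6), Nlrp4f 6.34-fold (5.53 to 7.30) and Khdc3 5.17-fold (4.78 to 5.59). Ooep differed by 0.02 and Tle6 by -0.57 on the log2 scale. Against the vehicle control in place of WT TT2, Nlrp4c and Nlrp4f were still called, at log2 differences of 3.49 and 2.5, and Khdc3 was not, at 0.66. Ooep then became higher (1.69) and Tle6 lower (-1.92).

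Against WT TT2, 4 genes were higher and 0 lower for the library labelled G9a/GLP DKO, with 9.77% of all tested genes higher and 7.09% lower. Ehmt2 was not lower in that library, so its directions rest on the label. Nlrp4c was 17.3-fold higher (interval 11.6 to 26.8), Khdc3 6.55-fold (6.06 to 7.10) and Nlrp4f 6.05-fold (5.24 to 7.0). Nlrp5, with 45 counts against 0, was at least 30.0-fold higher. Against the vehicle control, Khdc3 fell just short of the threshold, at a log2 difference of 0.998, while Nlrp4c (3.54), Nlrp4f (2.43) and Nlrp5 (2.18) were still called. Ooep then became higher (2.08) and Tle6 lower (-1.31), as for G9a CM. Between the G9a lines, Nlrp5 was 7.51-fold higher (interval 3.51 to 18.5) for the library labelled G9a/GLP DKO against G9a CM, where 6.67% of tested genes were higher. Nlrp4c (ratio 1.04, interval 0.873 to 1.24) and Nlrp4f (0.954, interval 0.868 to 1.05) did not differ beyond counting error between these lines. The Nlrp5 call was lost on the TPM scale, at a log2 difference of 0.92.

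In Dnmt3a/3b DKO, Khdc3 and Nlrp4c were higher and Ooep lower than in WT J1, where 9.23% of tested genes were higher and 9.89% lower. Khdc3 was 7.74-fold higher (interval 6.51 to 9.26). Nlrp4c, with 47 counts against 0, was 13.9-fold higher with 0 taken as 3 counts (lower interval limit 10.9). Ooep was 4.37-fold lower (interval 4.15 to 4.6). Nlrp4f, at 7.29 against 5.30 CPM, had a log2 difference of 0.40 and was not called. On the TPM scale the Nlrp4c difference was 0.85, under the threshold.

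In Dnmt1/3a/3b TKO, 3 genes were higher and 1 lower than in WT J1, against 11% and 10.6% over all tested genes. Khdc3 was 15.4-fold higher (interval 13.0 to 18.3). Nlrp4c, at 111 counts against 0, was 30.2-fold higher with 0 taken as 3 counts (lower interval limit 24.1). Nlrp4f was 3.54-fold higher (interval 2.77 to 4.58). Ooep was 3.29-fold lower (interval 3.15 to 3.44). Set directly against Dnmt3a/3b DKO, Nlrp4f was 2.58-fold higher (interval 2.09 to 3.19), with 1.79% of tested genes higher. Khdc3 (1.99-fold, interval 1.86 to 2.13) and Nlrp4c (2.16-fold, 1.53 to 3.11) were above Dnmt3a/3b DKO beyond counting error and short of the threshold, at log2 differences of 0.98 and 0.89.

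WT J1 was an extreme library for several of these genes. Against WT TT2, Ooep was 4.00-fold higher (interval 3.83 to 4.17) and Khdc3 3.34-fold lower (2.80 to 4.02), with 12.5% of tested genes higher and 11% lower. Nlrp4c, at 0 against 27 counts, was 5.27-fold lower with 0 taken as 3 counts (lower interval limit 4.00). With WT TT2 in place of WT J1, Khdc3 was still called higher in both Dnmt lines, at log2 differences of 1.19 and 2.17, and Nlrp4c in Dnmt1/3a/3b TKO, at 1.78. Nlrp4c in Dnmt3a/3b DKO (0.89) and Nlrp4f in Dnmt1/3a/3b TKO (0.84) were not. The Ooep calls were also lost, at -0.13 in Dnmt3a/3b DKO and, with the sign turned, 0.28 in Dnmt1/3a/3b TKO. The strain differs in this substitution, so line and mutation cannot be told apart in it.

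UNC0638 was followed over 3 days of collection. On day 2, 1 gene was higher than in the vehicle control, against 3.12% of tested genes higher and 1.84% lower: Nlrp4c, 8.09-fold (interval 4.10 to 18.2). Nlrp4f (1.90-fold, interval 1.57 to 2.32) and Khdc3 (1.74-fold, interval 1.64 to 1.85) had log2 differences of 0.87 and 0.79, which passed 1 when libraries were scaled by total count (1.08 and 1.02) or on the TPM scale (1.14 and 1.08). On day 4, Nlrp4c, Nlrp4f and Khdc3 were higher, at 11.6-fold (interval 5.92 to 25.9), 2.69-fold (2.23 to 3.27) and 2.49-fold (2.34 to 2.64), with 1.95% of tested genes higher and 0.671% lower.

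On day 14 the same 3 genes were higher, against 2.92% of tested genes higher and 0.535% lower. Nlrp4c was 19.6-fold higher than in the vehicle control (interval 10.1 to 43.6), Khdc3 3.07-fold (2.89 to 3.25) and Nlrp4f 2.20-fold (1.80 to 2.69). Nlrp4c and Khdc3 were above their day 4 level beyond counting error (intervals of the day 14 to day 4 ratio 1.35 to 2.13 and 1.18 to 1.28). Nlrp4f was below it (interval of the day 4 to day 14 ratio 1.07 to 1.41). Ooep and Tle6 were called on no day, with log2 differences of -0.29 to 0.06 and -0.30 to 0.32. These 3 comparisons share the vehicle control, whose 9 counts of Nlrp4c set the width of its intervals.

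Against untreated WT TT2, the 3 Nlrp4c and 2 Nlrp4f calls were kept, and Khdc3 was called higher on all 3 days, at log2 differences of 2.47, 2.98 and 3.28. Ooep was then lower (-1.61, -1.96 and -1.88) and Tle6 higher (1.68, 1.05 and 1.53) on every day. The vehicle control itself differed from WT TT2 in the same genes, with 25.2% of all tested genes higher and 22.0% lower in it. Khdc3 was 3.27-fold higher (interval 3.00 to 3.56), Tle6 2.74-fold higher (2.29 to 3.29) and Ooep 3.25-fold lower (2.95 to 3.57). Neither Nlrp4c (ratio 0.622, interval 0.258 to 1.36) nor Nlrp4f (1.04) differed between the vehicle control and WT TT2 beyond counting error.

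**Figure D4:**
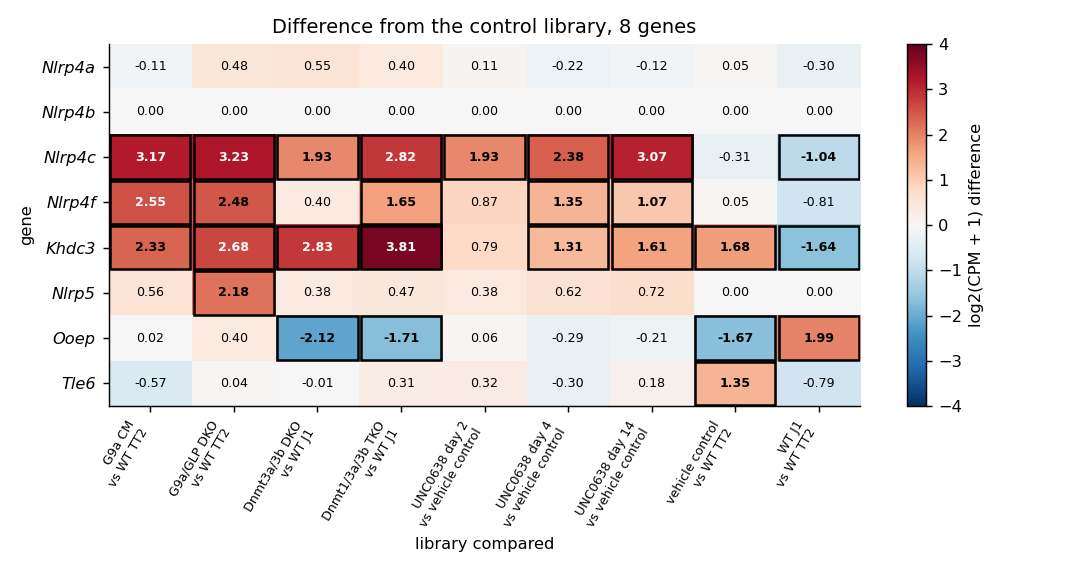
log2(CPM + 1) differences of the 8 genes in 9 comparisons with a wild-type or vehicle control library, red for higher and blue for lower, with called differences boxed. Nlrp4c is boxed as higher in all 7 comparisons of a mutant or inhibitor library with its own control, Khdc3 in 6 and Nlrp4f in 5, while Ooep is boxed as lower in both Dnmt lines.

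Over the 7 comparisons of a mutant or inhibitor library with its own control, Nlrp4c was called higher in 7, Khdc3 in 6, Nlrp4f in 5, Nlrp5 in 1, and the other 4 genes in none. In single comparisons of this kind 1.95% to 11% of tested genes were called higher, and no share was taken for repeated calls. Nlrp4c was under 1 CPM in WT J1 and the vehicle control, and Nlrp5 had 0 counts in all 3 controls. Against such a control a gene can only be measured where it is high, so these calls could hardly run the other way. Nlrp4c, Nlrp4f, Khdc3 and Nlrp5 were each above the own control in all 7 by any margin, as were 6.46% of genes at 1 CPM or more in 1 library, with 5.47% below it in all 7. For Nlrp5 the margin was not always beyond counting error. Several of these comparisons share a control, so the counts are not independent.

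Across the 10 libraries, the log2 levels of Nlrp4c went with those of Nlrp4f (Pearson r = 0.92) and Khdc3 (r = 0.84), while Ooep ran opposite to Khdc3 (r = -0.72) and to Tle6 (r = -0.87). These correlations describe 10 libraries that share lines, controls and depth, and are given without a test. The genes whose pattern was most like each member were taken from 9252 other protein-coding genes. For Nlrp4c these were Pramel6 (r = 0.97), a gene of the PRAME family that ranged from 0.0671 CPM to 271 CPM, and then Adh4 and Akr1cl (both 0.94). For Nlrp4f they were Mpp1 (0.96), Pld1 (0.95) and Pramel6 (0.95), and for Khdc3 Adprh (0.96), Mtap (0.94) and Jmjd4 (0.93). For Ooep they were Senp7, Zfp101 and Tm2d1 (all 0.99), and for Tle6 Flii (0.99), Disp1 and Trim11 (both 0.98).

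**Figure D5:**
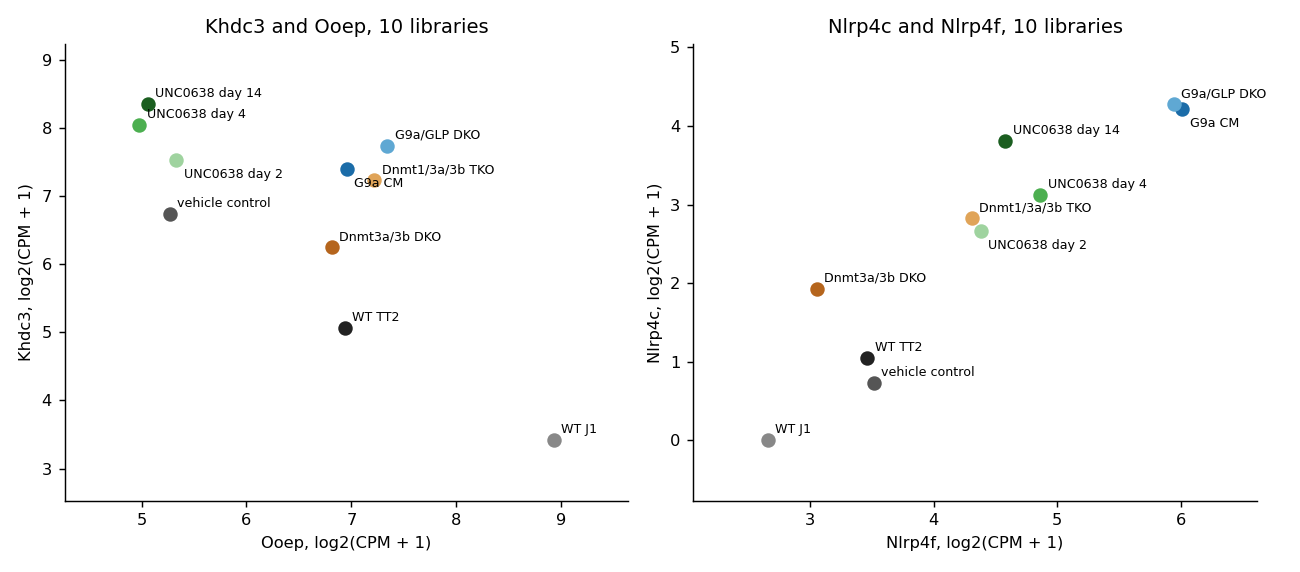
log2(CPM + 1) of Khdc3 against Ooep (left) and of Nlrp4c against Nlrp4f (right), 1 labelled point per library. Nlrp4c and Nlrp4f rise together from WT J1 to the G9a lines (r = 0.92), while the inhibitor series holds high Khdc3 with low Ooep and WT J1 the reverse (r = -0.72).

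Genes beside the members did not all follow them. Rab27a, which encodes a small GTPase of vesicle transport and lies 3758 bases from Khdc3, was higher in both G9a lines (log2 differences 1.18 and 1.51) and both Dnmt lines (1.53 and 1.82), and was not called on any day of UNC0638. Its level in the vehicle control, at 20.8 CPM, was above the 10.6 and 13.6 CPM of the G9a lines. Rsl24d1, on the other side of Khdc3 at 6838 bases, was called in no comparison. Dppa5a, a KH-domain gene of pluripotent cells 8704 bases from Ooep, was like Ooep lower in both Dnmt lines than in WT J1 (-1.12 and -1.53), higher in WT J1 than in WT TT2 (2.53) and lower in the vehicle control (-1.09). Zfp787 and Zfp444, at 26340 and 67319 bases from Nlrp4c, were called in neither G9a line and on no day of UNC0638. Zfp444 was higher in both Dnmt lines than in WT J1 (1.13 and 1.14) and lower in WT J1 than in WT TT2 (-1.41), the directions Nlrp4c had, and Zfp787 lower in both Dnmt lines (-1.87 and -1.64).

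The remaining genes of the complex and its surroundings were mostly low. From a list of 11 other genes of the subcortical maternal complex and the cytoplasmic lattices, 10 were found and 7 reached 1 CPM in 1 library. In G9a CM, 1 of 7 measured genes was higher (5.4% of all tested genes were), and 0 of 6 for the library labelled G9a/GLP DKO (9.77%). In each Dnmt line 3 of 6 were higher (9.23% and 11%), with Zbed3 lower in Dnmt1/3a/3b TKO (-1.06). The 3 were Nlrp14, Nlrp9b and Kpna7, all under 1 CPM in WT J1. They could be measured only because they were high in the Dnmt lines, so these counts could hardly run the other way. On days 2, 4 and 14, 1 of 6, 1 of 5 and 1 of 5 were higher (3.12%, 1.95% and 2.92%). Nlrp14, an Nlrp gene of oocytes and testis, accounted for the G9a CM and UNC0638 calls. Its level was 2.32 CPM for WT TT2 and 7.13 and 5.51 for the G9a lines, at 0.403 CPM in WT J1 and 4.78 and 4.76 in the Dnmt lines, and at 2.20 CPM in the vehicle control and 8.96, 11.2 and 8.98 on days 2, 4 and 14. Nlrp9b was higher in both Dnmt lines, at 4.96 and 4.00 against 0.403 CPM, as was Kpna7, an oocyte importin, at 1.97 and 7.61 CPM against 0. Padi6, which encodes a lattice protein needed by the early embryo, was at 0.535 to 2.99 CPM, and highest in WT TT2.

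Among 8 other germline-type Nlrp genes, Nlrp14 and Nlrp9b were the ones at 1 CPM or more. Nlrp4e, 23612 bases from Nlrp5, peaked at 0.551 CPM, for the library labelled G9a/GLP DKO, and Nlrp9a, beside Nlrp4a, had 0 counts throughout. Of 16 inflammasome-type NLR genes, 7 reached 1 CPM. Nod1 was the 1 called in each G9a line, of 4 and 3 measured, with 5.4% and 9.77% of all tested genes higher. It was higher (log2 differences 1.10 and 1.18, at 13.7 and 14.6 CPM), but its 20.4 CPM in the vehicle control lay above both. Nlrp12 was lower in each Dnmt line (-1.96 and -1.86, of 4 and 3 measured, with 9.89% and 10.6% of all tested genes lower). On day 14 Nlrc4 was lower (-1.01, 1 of 6 measured, with 0.535% of all tested genes lower). None of the other Groucho genes (4 of 5 found at 1 CPM or more) was called in a mutant or inhibitor comparison with its own control.

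Most genes on a broader oocyte list stayed under 1 CPM. Of 33 oocyte genes, 12 reached 1 CPM in 1 library. In G9a CM, 1 of 7 measured was higher (5.4% of all tested genes), and 4 of 9 for the library labelled G9a/GLP DKO (9.77%). In the Dnmt lines 3 of 7 and 6 of 11 were higher (9.23% and 11%) and 1 lower in each. On days 2, 4 and 14, 2 of 6, 2 of 7 and 1 of 6 were higher (3.12%, 1.95% and 2.92%). Some of the higher genes were under 1 CPM in the control, such as Npm2 in WT J1 (0.201 CPM) and Bmp15 in WT TT2 (0 CPM). Such a gene can only be measured where it is high. The largest differences on this list were those of Dppa3, a maternal factor also expressed in embryonic stem cells, which was at 4.77 CPM in WT J1 and 292 and 200 in the Dnmt lines (log2 differences 5.67 and 5.12). In WT TT2 it was at 549 CPM, so WT J1 was the low library. The oocyte transcription factor gene Figla peaked at 1.07 CPM (WT J1), Nobox at 0.254 CPM and the growth factor gene Gdf9 at 1.54 CPM. Sohlh2, a germ cell transcription factor gene, was at 9.55 CPM in the vehicle control and 46.9, 52.5 and 59.0 on days 2, 4 and 14, and at 9.28 CPM in WT TT2 and 28.9 for the library labelled G9a/GLP DKO. Zp3, which encodes a coat protein of the egg, stood at 6.18 CPM in WT J1 and 21.6 and 36.9 in the Dnmt lines. Npm2, a histone-binding factor of the egg, was at 1.34 CPM in WT TT2 and 8.34 for the library labelled G9a/GLP DKO.

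Genes of the 2-cell embryo moved over the same libraries. Of 19 such genes found, all of those measured in a comparison with the own control were higher. These were 6 in G9a CM (5.4% of all tested genes were higher) and 13 for the library labelled G9a/GLP DKO (9.77%). There were 5 in each Dnmt line (9.23% and 11%), and 8, 10 and 16 on days 2, 4 and 14 (3.12%, 1.95% and 2.92%). A gene under 1 CPM in the control can only be measured where it is high, so these counts could hardly run the other way. Zscan4d, a 2-cell marker, was at 2.77 CPM in G9a CM and 42.8 for the library labelled G9a/GLP DKO, and Nlrp4c at 17.6 and 18.3 CPM in the same libraries. On day 14 Zscan4d reached 144 CPM and Nlrp4c 13.0. From 24 piRNA and germ cell genes known for promoter methylation, 10 and 11 of 21 measured were higher in the Dnmt lines (9.23% and 11% of all tested genes) and 1 lower in each (9.89% and 10.6%). In G9a CM 5 of 21 were higher (5.4%), and 2 of 20 were higher (9.77%) and 3 lower (7.09%) for the library labelled G9a/GLP DKO. On days 2, 4 and 14, 4 of 23, 6 of 21 and 6 of 22 were higher (3.12%, 1.95% and 2.92%). Here too some genes were under 1 CPM in the control, such as Asz1 and Tuba3b with 0 CPM in WT J1.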

How the data were processed

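RNA-seq (Smart-seq2) of 10 libraries was used, 1 per group, with total counts of 11436808 to 25609600; the other 120 of 130 samples were not analysed here. Per the submitters' processing notes, the authors aligned reads with STAR 2.5.3a and quantified genes with RSEM on GRCm38 (mm10). No source used here gives the RSEM version, annotation release or use of strand. The deposited expected counts are RSEM estimates that share out reads fitting several genes, and the deposited TPM values, per the file headers, come from the same run and account for gene length. Bounds of the TPM, a score in the deposited tables, were not used.

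Expected counts were rounded and scaled by TMM factors (edgeR 4.0.16, R 4.3.3) over the 15906 genes with at least 1 CPM in 1 library, a filter adopted after results without it had been seen. Differences were taken as log2(CPM + 1), with exact conditional binomial 95% intervals of the count ratio (SciPy 1.17.1, Python 3.11.15). Fragments carried no molecular identifiers here, so intervals cover counting error only. A fold against 0 counts was taken against 3 counts in that library. With 1 library per group no test between conditions was made. Alternatives were total-count scaling, DESeq2 1.42.0 size factors, deposited TPM, a pseudocount of 0.5 CPM, no minimum, posterior mean counts and other control libraries.

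Symbols were matched to 99.7% of identifiers through RefSeq tables, without version numbers, a change also made after first results. The genes and lists were chosen with earlier results of these data known. Other named genes were the 3 protein-coding genes (at least 10 CPM in 1 library) most correlated with each member, the 2 nearest on each side, and, from each list, up to 3 genes that were among the 3 largest differences in some comparison. Figla, Nobox, Gdf9 and the granulosa markers were named for their roles. Promoter windows were aligned locally (match 2, mismatch -1, gap opening -4, extension -1), and the shared run and these alignments were chosen after the sequences were seen. On simulated counts of 52550 genes in 11 comparisons, 98.5% to 100% of genes changed 3-fold were recovered and at most 1 unchanged gene was called. Of genes changed 1.5-fold, under the threshold, 0% to 1.5% were called. These counts held Poisson error only, without variation between libraries, and changes were set in genes above the minimum level. They do not measure false calls in the real libraries, where 25.2% of genes were higher and 22.0% lower in the vehicle control than in WT TT2.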

Additional observations from a re-analysis of the deposited data

How the results depend on the processing

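Of 29 calls of the 8 genes in 11 comparisons, all 29 were kept under total-count scaling, DESeq2 size factors, a pseudocount of 0.5 CPM, no minimum, posterior mean counts and TMM over all genes. Deposited TPM kept 26, losing Nlrp5 between the G9a lines, Nlrp4c in Dnmt3a/3b DKO and Nlrp4c in WT J1 against WT TT2, and added 3. The number of genes called in the library labelled G9a/GLP DKO against G9a CM was then 0, and on day 2 it was 3 both by TPM and by total count, in place of 1. Control swaps other than the vehicle control for the G9a lines were chosen after seeing the data. With WT TT2 as control, 1 gene was called for Dnmt3a/3b DKO and 2 for Dnmt1/3a/3b TKO, where Ooep turned to 0.28. With untreated WT TT2 as control, 4, 5 and 5 genes were called on days 2, 4 and 14. The share of all genes called was not taken for any swapped control. With the vehicle control for the G9a lines, 5 of 7 calls were kept and 4 added (Ooep higher and Tle6 lower in both). With WT J1 for the G9a lines, 7 of 7 were kept and Ooep was added as lower in both (-1.97 and -1.59). WT J1 was at or below WT TT2 in Nlrp4c, Nlrp4f, Khdc3 and Nlrp5, so these 7 calls could hardly be lost. The strain also differs in this swap. The cause of the changes in calls was not tested.

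Scaling moved the share of all calls that were higher. Against WT TT2 this share was 57.9% for the library labelled G9a/GLP DKO, and 70.0% by total count. For Dnmt3a/3b DKO it was 48.3%, with 63.7% by total count and 71.9% by TPM, and for Dnmt1/3a/3b TKO 50.9%, 65.5% and 73.0%. On day 2 it was 62.9%, with 83.1% by total count, 51.7% by DESeq2 size factors and 76.7% by TPM. For WT J1 against WT TT2 it was 53.3%, 43.2% and 30.8%. The median of all genes moved by up to 0.28 (Dnmt lines, TPM) upward and by -0.29 (WT J1 against WT TT2, TPM). No paired analysis was possible because each group holds 1 library, which also left no replicate to leave out. Nlrp4a, Nlrp4b and Nlrp5 were limited by depth, with 3 counts worth 0.118 to 0.236 CPM.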
